A study of Mus musculus with 8 samples.

Results

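The genes described here encode the nuclear subunits of oxidative phosphorylation, the 5 enzyme complexes of the inner mitochondrial membrane that carry electrons to oxygen and make ATP. They were taken by name: every gene whose symbol starts with Ndufa, Ndufb, Ndufc, Ndufs, Ndufv, Uqcr, Cox4, Cox5, Cox6, Cox7, Cox8 or Atp5, together with Sdha, Sdhb, Sdhc and Sdhd, without the Ndufaf assembly factors and without 2 pseudogenes. This gave 85 genes, of which 78 had at least 20 reads in at least 2 libraries, out of 10869 named genes that passed the same filter. The 78 were 36 subunits of complex I, 4 of complex II, 8 of complex III, 13 of complex IV and 17 of complex V. Beyond the names, the choice used the read filter, applied to the transcript of each gene with the highest summed value. The list was drawn up with earlier results of these data known. The 7 genes below the filter are all isoforms of complex IV subunits.

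The samples were livers of wild-type C57/BL6 mice, which had lived on a light and dark cycle for a week and then spent a day without light before collection. RNA was collected every 6 h at 8 circadian times (CT, hours of the internal day), from CT23 to CT65. Each time is a single library of polyadenylated RNA pooled in equal parts from 3 animals, and sex and age are not labelled. The 8 libraries pass through 4 clock phases on 2 successive internal days: CT23 (libraries CT23 and CT47), CT11 (CT35 and CT59), CT5 (CT29 and CT53) and CT17 (CT41 and CT65). All animals shared the genotype and the housing, so clock time was the only labelled difference, and pool, library and collection day cannot be told apart from it. Because these are whole-liver pools, fewer cells of a type and less RNA per cell cannot be told apart.

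Complex I (NADH dehydrogenase) and complex II (succinate dehydrogenase) pass electrons to ubiquinone, complex III passes them on to cytochrome c, and complex IV (cytochrome c oxidase) reduces oxygen. Complexes I, III and IV pump protons, and complex V, the ATP synthase, lets the protons flow back to drive ATP synthesis. Complex II is made of nuclear gene products alone, while the other complexes join them with subunits encoded in mitochondrial DNA, which were not analysed here. Nuclear respiratory factor 1 and the ETS-family factor GABP are the classical regulators of these nuclear genes, and hepatocytes, which spend much ATP on synthesis and transport, are rich in mitochondria.

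Promoter sequence was read for the members from RefSeq's GRCm38.p6 annotation, as the 250 bases before each annotated transcription start. A total of 65 members had at least 1 such window, and they gave 70 windows in all. The motif CGCNNGCG, the inner part of the nuclear respiratory factor 1 site, which has the same form on both strands, was present in 24 of the 70 windows (34.3%), against 12.1% of all 32851 windows. The motif CCGGAAG, an ETS-family core, searched on both strands and therefore also as CTTCCGG, was in 12 (17.1%), against 6.91% of all windows. The TATA-box core TATAAA, also searched as TTTATA, was in 7 (10.0%), against 12.4% of all windows. The median share of G and C was 57.0% in the members' windows and 52.4% in all windows, and the 2 GC-rich motifs are found more easily in GC-rich sequence. A match describes letters in a window and is not a binding site. The 6 windows below are examples and were not drawn to represent all windows. They are from subunits of complexes I and II, an abundant complex IV subunit and the complex V subunit with the largest single-library excess. Also shown are an expressed and a nearly silent isoform of another complex IV subunit. Capitals mark every match to the 3 motifs.

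Ndufab1 (chr7:122101849-122102098, minus strand): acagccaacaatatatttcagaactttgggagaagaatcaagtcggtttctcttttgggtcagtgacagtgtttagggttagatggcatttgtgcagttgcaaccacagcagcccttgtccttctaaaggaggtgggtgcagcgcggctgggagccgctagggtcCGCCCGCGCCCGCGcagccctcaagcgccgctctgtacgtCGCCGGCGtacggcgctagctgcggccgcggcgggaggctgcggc
Sdha (chr13:74350241-74350490, minus strand): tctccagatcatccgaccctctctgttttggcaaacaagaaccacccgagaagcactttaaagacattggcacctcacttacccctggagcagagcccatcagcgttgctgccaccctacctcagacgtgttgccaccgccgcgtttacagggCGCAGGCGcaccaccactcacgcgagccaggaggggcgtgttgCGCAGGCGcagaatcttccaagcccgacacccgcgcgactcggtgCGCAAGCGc
Cox6a1 (chr5:115348959-115349208, minus strand): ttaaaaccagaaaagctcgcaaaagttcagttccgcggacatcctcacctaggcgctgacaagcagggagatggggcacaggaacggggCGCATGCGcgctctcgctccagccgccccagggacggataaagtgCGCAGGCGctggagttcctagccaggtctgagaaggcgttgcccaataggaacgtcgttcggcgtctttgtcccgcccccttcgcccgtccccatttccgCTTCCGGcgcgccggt
Cox6b1 (chr7:30626115-30626364, minus strand): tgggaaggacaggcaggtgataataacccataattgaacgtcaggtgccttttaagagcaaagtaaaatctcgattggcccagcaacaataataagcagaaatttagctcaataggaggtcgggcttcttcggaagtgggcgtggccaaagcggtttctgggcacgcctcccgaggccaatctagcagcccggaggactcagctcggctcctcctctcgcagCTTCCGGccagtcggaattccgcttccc
Cox6b2 (chr7:4753095-4753344, minus strand): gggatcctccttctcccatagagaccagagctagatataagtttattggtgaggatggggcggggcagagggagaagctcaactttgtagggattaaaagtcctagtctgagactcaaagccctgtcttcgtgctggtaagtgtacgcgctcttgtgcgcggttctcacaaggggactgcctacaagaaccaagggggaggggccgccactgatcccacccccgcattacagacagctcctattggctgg
Atp5md (chr19:47090648-47090897, minus strand): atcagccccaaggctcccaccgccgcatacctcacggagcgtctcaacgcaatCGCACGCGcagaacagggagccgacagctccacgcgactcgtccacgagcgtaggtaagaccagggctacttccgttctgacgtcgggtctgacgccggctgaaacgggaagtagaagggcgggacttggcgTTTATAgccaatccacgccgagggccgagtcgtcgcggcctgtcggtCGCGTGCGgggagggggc

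Sdha held CGCNNGCG at 3 places and Cox6a1 at 2, Cox6a1 with a CTTCCGG close to its start as well. Ndufab1 also held it at 3 places, of which 2 overlap, and Atp5md at 2 beside a TTTATA. Cox6b1 held only the ETS core, and Cox6b2 held none of the 3 motifs.

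Levels are given as RPKM, reads scaled for transcript length and library depth, which allows genes to be compared per length. The members were strongly expressed: their median level was 45.4 RPKM, against 5.96 RPKM over all 10869 genes tested. By complex the median was 33.2 RPKM for complex I, 101 RPKM for complex II, 80.7 RPKM for complex III, 80.3 RPKM for complex IV and 91.0 RPKM for complex V. Each gene was represented by the annotated transcript with the highest summed value, which for 14 of the 78 was another transcript, at over 1.5 times the level of the gene's RefSeq mRNA. On RefSeq mRNAs the medians were 25.4, 67.9, 67.3, 66.1 and 55.0 RPKM for complexes I to V, and 34.6 RPKM over all members.

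The highest level of all belonged to Atp5b, the catalytic beta subunit of the ATP synthase, at 730 ± 107 RPKM (SD, n = 8 libraries), or 362 RPKM on its RefSeq mRNA. Atp5a1, the alpha subunit, followed within complex V at 384 RPKM, or 210 RPKM on its RefSeq mRNA. The 5 subunits of the F1 head and central stalk had a median of 196 RPKM and the 4 of the peripheral stalk 130 RPKM (65.8 RPKM on RefSeq mRNAs), while the 3 genes of the c ring had 35.2 RPKM and the 5 small membrane subunits 21.7 RPKM. In complex IV the highest was Cox8a at 331 ± 74.6 RPKM (SD, n = 8), followed by Cox6a1 at 305 ± 63.1 RPKM (SD, n = 8), and these neighbours did not differ beyond their spread. Sdhc, a membrane anchor of complex II, reached 367 ± 120 RPKM (SD, n = 8), and is described exon by exon further on. In complex III the highest was Uqcrq, a small subunit, at 217 ± 62.4 RPKM (SD, n = 8). Complex I was headed by Ndufa3, an accessory subunit, at 423 ± 67.6 RPKM (SD, n = 8), a value read on a 136-base transcript that came to 189 RPKM on the RefSeq mRNA. The core subunits of complex I, which hold the flavin and the iron-sulfur clusters, had a median of 51.6 RPKM, and its 29 accessory subunits 25.4 RPKM. On RefSeq mRNAs these medians were 31.7 RPKM for the core and 23.5 RPKM for the accessory subunits. The lowest members were Ndufs4 at 4.92 RPKM in complex I, Atp5g2 at 4.77 RPKM and Atp5l at 3.25 RPKM in complex V, and Ndufa4l2 at 1.32 RPKM in complex IV.

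**Figure D1:**
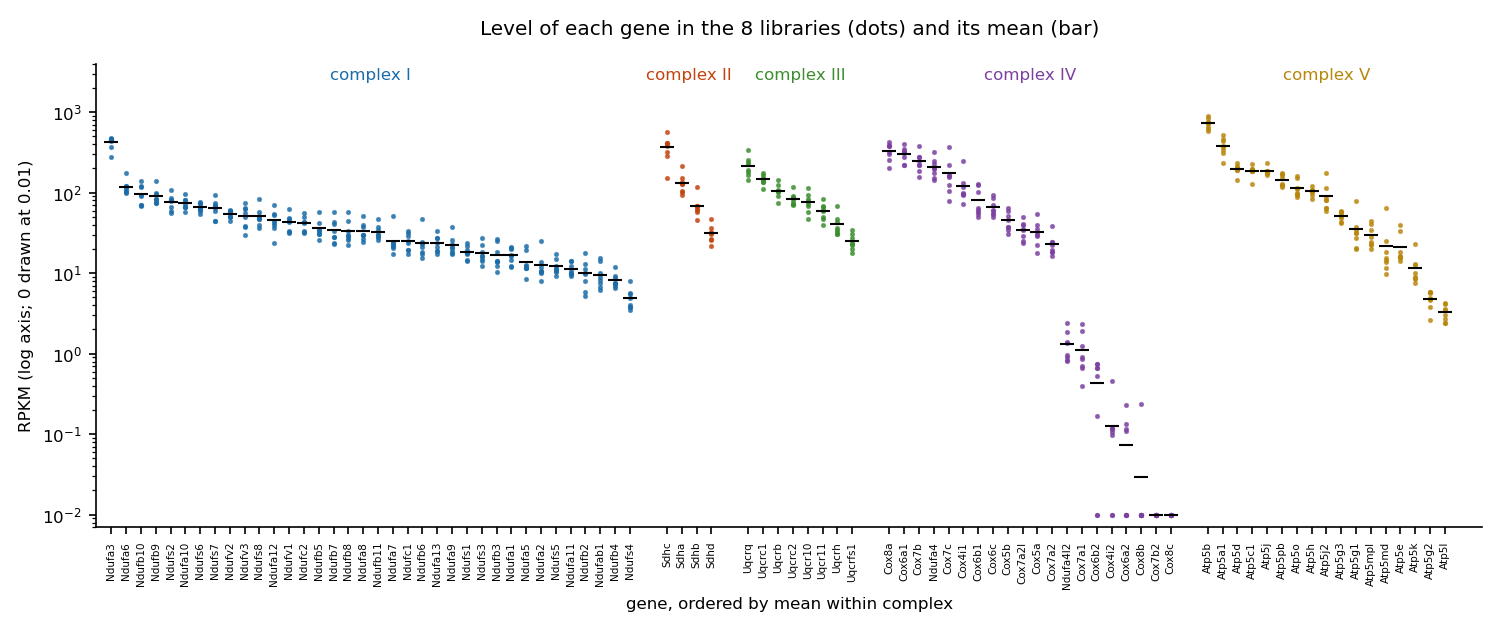
Level of each of the 85 genes in RPKM on a log axis, by complex and ordered by mean: dots are the 8 libraries, bars their mean, and values of 0 are drawn at 0.01. Complex IV falls into an expressed group, down to Cox7a2 at 22.9 RPKM, and a group from Ndufa4l2 at 1.32 RPKM down to Cox7b2 and Cox8c at 0.

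Several subunits of complex IV have tissue isoforms, and in each family a single form carried nearly all reads. Cox6a1, the form of most tissues, stood at 305 RPKM, and Cox6a2, the form of heart and skeletal muscle, at 0.0741 RPKM from 6 reads in all 8 libraries. Cox8a stood at 331 RPKM, with 1 read in all for Cox8b, another form of muscle and brown fat, and none for Cox8c. Cox7b stood at 244 RPKM (50.2 RPKM on its RefSeq mRNA) and Cox7b2 had no read, so that Cox7b was at least 4893-fold higher against a floor of 3 reads over the 8 libraries. Cox4i1 stood at 119 RPKM and Cox4i2, the lung form, at 0.127 RPKM from 10 reads. Cox6b1 stood at 80.3 RPKM and Cox6b2, the testis form, at 0.438 RPKM from 23 reads. In each of these pairs the 8 values of the expressed form all lay above the 8 of the other. The narrowest gap was between Cox7a2 at 22.9 RPKM and Cox7a1, the muscle form, at 1.13 RPKM from 48 reads, a ratio of 20.3, or 10.5 in the library where it was smallest. Cox7a2l, a related protein that joins respiratory supercomplexes, stood at 34.5 RPKM. Ndufa4, now counted as a subunit of complex IV, stood at 208 RPKM and its paralog Ndufa4l2 at 1.32 RPKM. Of the 7 skeletal and heart muscle markers, Ckm, Myh1 and Myh6 had no read, and the 7 summed to at most 0.211 RPKM in any library. The 3 brown fat markers summed to at most 0.261 RPKM.

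The c ring of the ATP synthase is built from a single mature protein encoded by 3 genes with different presequences, Atp5g1, Atp5g2 and Atp5g3. Atp5g3 provided most of their summed RPKM in 7 libraries, between 56.7% and 67.7%. In the CT35 library Atp5g1 provided 56.3% and Atp5g3 41.8%. On RefSeq mRNAs the shares in CT35 were nearly equal, at 49.1% for Atp5g1 and 48.7% for Atp5g3, and Atp5g3 provided 62.5% to 72.4% in the other 7. Atp5g2 provided between 1.90% and 7.57% over the 8 libraries. The lower deposited value, used throughout, leaves out part of what the upper one holds: for Atp5g2 the upper value was 7.57 times the lower, and for Atp5g1 2.55 times. Such a gap above 1.5 times occurred in 11 of the 78 members, against 4.2% of all genes tested. The other 9 were Atp5l, Ndufb4, Ndufs5, Ndufab1, Ndufa12, Atp5md, Ndufs3, Cox5b and Cox7c. The sources do not say what separates the upper from the lower value, and the levels of these 11 genes are uncertain to that extent. Atp5g3 was not among the 11, so the shares given above hold for the lower values only. On the upper values Atp5g3 would have a smaller share over the 8 libraries and Atp5g2 a larger one. The lead of Atp5g3 over Atp5g1 may not hold there, and this was not tested.

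The study's question was which transcripts follow the clock over 2 internal days. For the members the count was 0. No gene of the 78 had a 24-h component at an adjusted p under 0.05 (limma on log2(RPKM + 0.5), Benjamini-Hochberg over all 10869 genes). Among all genes tested the share was 1.84% (200 genes), so small that 0 of 78 does not set the members apart. At an unadjusted p under 0.05 there were 2 members, against 15.0% of all genes. edgeR on the recovered reads called 0 of the 78 and DESeq2 called 0, with 2 and 1 at an unadjusted p under 0.05. Members differed from trough to peak by a median of 0.32 on the log2 scale (1.25-fold), against 0.40 over all genes. As a check that the fit finds large rhythms here, Dbp, a clock output gene, was called at a 115-fold change with an adjusted p of 0.000216 (limma). Arntl, a clock component, was called at 15.9-fold with an adjusted p of 0.00130 (limma). Changes as small as the members' median of 1.25-fold are not covered by this check.

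The member nearest to the threshold was Ndufab1, the mitochondrial acyl carrier protein, which is an accessory subunit of complex I (mm9 chr7:129235040-129245249, minus strand). Its level was 7.65, 14, 15.3, 6.24, 6.69, 8.89, 10.2 and 8.13 RPKM in the 8 libraries from CT23 to CT65. It was low in the CT23 and CT47 libraries and highest in CT35, and both CT11 libraries lay above both CT23 libraries. The fitted difference was 1.97-fold with a peak at CT8.41 ± 1.10 h (SE), an unadjusted p of 0.0156 and an adjusted p of 0.204 (limma). The upper deposited value of this gene was 2.89 times the lower.

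Cox5a, a subunit of complex IV (mm9 chr9:57369039-57380233, plus strand), came next. It stood at 28.6, 39.8, 53.9, 29.7, 17.9, 35, 31.3 and 22.4 RPKM from CT23 to CT65. It was highest in CT35 and lowest in CT47, and both CT5 libraries lay above both CT17 libraries. The fitted difference was 1.99-fold with a peak at CT8.88 ± 1.19 h (SE), at an adjusted p of 0.251 (limma). In the remaining complexes the smallest adjusted p in this limma fit was 0.530 for Sdhb, the iron-sulfur subunit of complex II, 0.584 for Atp5g2 in complex V and 0.604 for Uqcrfs1, the Rieske iron-sulfur protein of complex III.

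The comparisons of opposite phases gave the same count. Between CT23 and CT11 no member was called by limma, edgeR or DESeq2, against 1.32% of all genes in limma, and 2 (Cox5a and Ndufab1) had an unadjusted p under 0.05 in limma, with 2 in edgeR and 2 in DESeq2. Cox5a averaged 23.3 RPKM at CT23 and 42.6 RPKM at CT11, a log2 difference of -0.84 (95% interval -1.52 to -0.17, limma, adjusted p = 0.275). Between CT5 and CT17 no member was called by any of the 3 tools, against 0.635% of all genes in limma, and none had an unadjusted p under 0.05 in limma, edgeR or DESeq2. The 95% interval of the log2 difference CT23 minus CT11 lay wholly within -1 and 1 for 41 of the 78, against 70.7% of all genes. For the other 37 the interval reached past a 2-fold change in at least 1 direction, so that these libraries did not exclude a change of that size.

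The largest deviation that ran through the members lay in a single library. In CT35 their median deviation from each gene's own mean was 0.55 on the log2 scale, against 0.09 over all genes. In the other libraries, from CT23 and CT29 to CT41, CT47, CT53, CT59 and CT65, it was -0.14, -0.23, 0.00, 0.21, 0.02, -0.06 and -0.29. A total of 58 of the 78 were highest in CT35, against 28.8% of all genes. The library of the same clock phase a day later did not share this: the log2 difference CT59 minus CT35 had a median of -0.72 among members, against -0.03 over all genes, and it was negative in 71 of the 78. It was -1 or lower in 15 of the 78, against 2.36% of all genes. With 1 library at each time the difference has no replicate check.

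**Figure D2:**
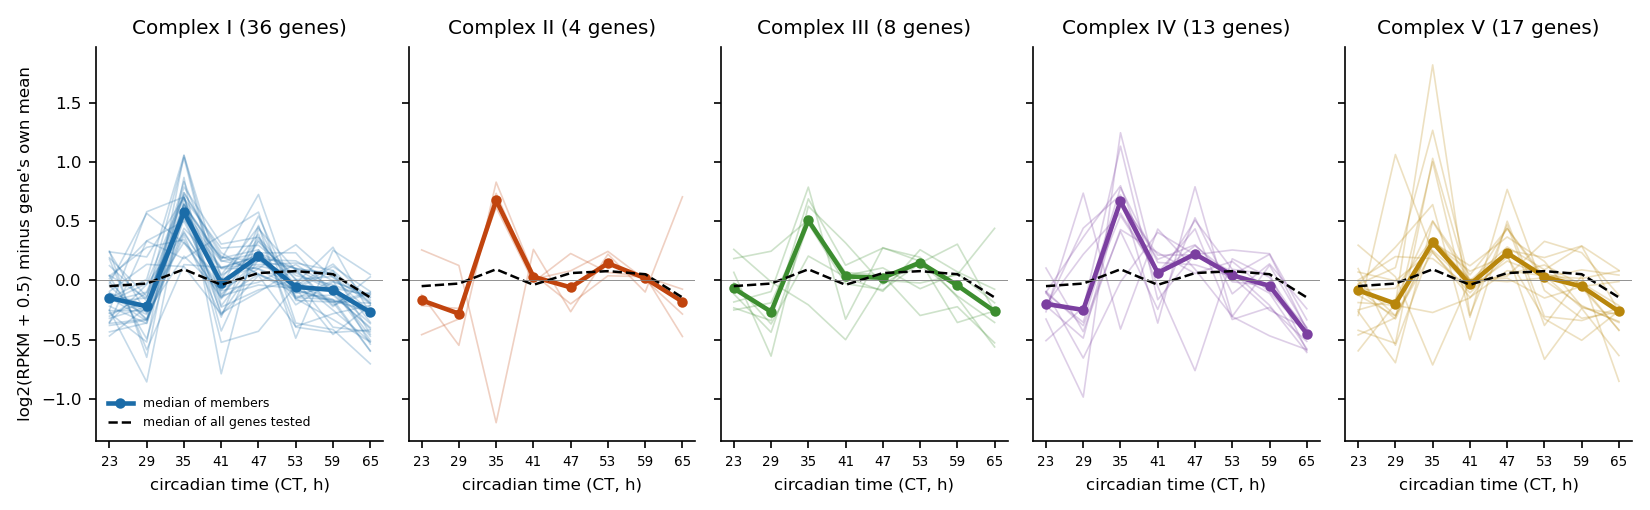
Log2(RPKM + 0.5) minus each gene's own mean over the 8 circadian times, by complex: thin lines are genes, thick lines their median, and the dashed line is the median of all 10869 genes tested. The median of every complex is highest in CT35, between 0.32 in complex V and 0.67 in complexes II and IV, and is near or below 0 in CT59.

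Before any correction for transcript length, the excess in CT35 was found in every complex, with exceptions inside each. Its median was 0.57 in complex I, 0.67 in complex II, 0.51 in complex III, 0.67 in complex IV and 0.32 in complex V. The number highest in CT35 was 28 of 36 in complex I, 3 of 4 in complex II, 6 of 8 in complex III, 9 of 13 in complex IV and 12 of 17 in complex V. Atp5md, a small membrane subunit also known as DAPIT that helps ATP synthase dimers assemble (mm9 chr19:47157961-47165115, minus strand), had the largest excess. It stood at 11.7, 15.6, 64.6, 14.5, 25, 13.7, 18.4 and 9.72 RPKM from CT23 to CT65, so that CT35 was 4.16 times the mean of the other 7 libraries, and its upper deposited value was 2.10 times the lower. By the log2 difference CT59 minus CT35, Ndufa7, an accessory subunit of complex I, came after Atp5md. Ndufa7 stood at 21.7, 24.3, 50.8, 22.0, 23.5, 23, 17.5 and 20.8 RPKM. Its 7 other libraries lay between 17.5 and 24.3 RPKM and CT35 stood alone. Atp5g1 was the next, at 27.2 RPKM in CT59 and 78.2 RPKM in CT35. Cox4i1, the regulatory subunit of complex IV, had 96.5 RPKM in CT59 and 246 RPKM in CT35. Atp5e, the epsilon subunit of the F1 stalk, had 15.6 RPKM in CT59 and 39.7 RPKM in CT35.

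A few members went the other way. Sdhc had 323 RPKM in CT59 and 150 RPKM in CT35, its lowest value, for a log2 difference CT59 minus CT35 of 1.10. Atp5g2 had 5.78 RPKM in CT59 and 2.63 RPKM in CT35, a difference of 1.0, resting on 44 reads in CT59 and 39 reads in CT35. Atp5pb, the b subunit of the peripheral stalk, had 176 RPKM in CT59 and 119 RPKM in CT35. Together with Ndufa4l2, at 1.41 RPKM in CT59 and 0.818 RPKM in CT35, these 4 were the members that were lowest in CT35. Cox8a, at 378 RPKM in CT59 and 320 RPKM in CT35, and Uqcrb, a small subunit of complex III at 108 RPKM in CT59 and 90.4 RPKM in CT35, also had less in CT35 than in CT59 without being lowest in CT35.

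The CT35 library stood apart in ways beyond these genes, and the part of those differences in the result was not tested. It was the deepest, with 22.9 M (mega) reads behind 1 RPKM, against 11.7 to 13.9 M in the other 7, and it had 64.5 junction reads per 100 reads, against 41.4 to 49.5. Transcripts under 700 bases, of which 2827 were tested, had a median deviation of 0.23 in CT35, and the members' transcripts had a median length of 528 bases, against 1703 over all genes. The 77 cytosolic ribosomal protein genes, also short, had a median deviation of 0.52 in CT35, with 48 of them highest there. After a per-library correction for transcript length the members' median deviation in CT35 was 0.41, against 0.03 over all genes. Of the 78, 49 were highest there. By complex it was then 0.42, 0.51, 0.36, 0.42 and 0.15 in complexes I to V, and complex V stood at 0.16 in CT47. After rescaling by TMM the members' median deviation in CT35 was 0.44, with 54 of the 78 highest there. The 7 hepatocyte markers summed to 73328 RPKM in CT35 and to between 44499 and 61515 RPKM in the others, most of it from Alb, the serum albumin gene, at 53810 RPKM in CT35. The other 6 hepatocyte markers summed to 19518 RPKM in CT35, within the 16989 to 20247 RPKM of the other libraries. The summed levels of the endothelial, stellate, macrophage and cholangiocyte markers in CT35 lay within the range of the other 7 libraries. The 3 lymphocyte markers summed to 1.24 RPKM in CT35, below 1.86 to 3.08 RPKM in the others, and the sum of the 2 measured erythroid markers was 101 RPKM in CT35, above 51.4 to 89.9 RPKM in the others. Among the cell type markers tested for the 24-h component, CT23 against CT11 and CT5 against CT17, Sox9 of the cholangiocyte list was the only gene called, higher at CT23 than at CT11 (limma, adjusted p = 0.0488). Without CT35 the 24-h component of Krt19, of the same list, had an adjusted p of 0.0287 (limma), against 0.624 with it.

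Other readouts of the same genes divided over the CT35 excess. Reads across the members' splice junctions, scaled to each library's junction total, had a median deviation of 0.41 in CT35 in 73 members, against 0.03 over all genes with junctions tested, and 40 of the 73 were highest there, against 21.0% of those genes. Reads in the introns of the members' chosen transcripts had a median deviation of -0.13 in CT35 in 71 members, against -0.20 over all genes with introns tested. Of the 71, 12 were highest there, against 6.70% of those genes. How much of these intron reads came from unspliced RNA was not tested. By complex the intron median in CT35 was -0.16 in complex I, -0.10 in complex II, 0.12 in complex III, 0.08 in complex IV and -0.08 in complex V.

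**Figure D3:**
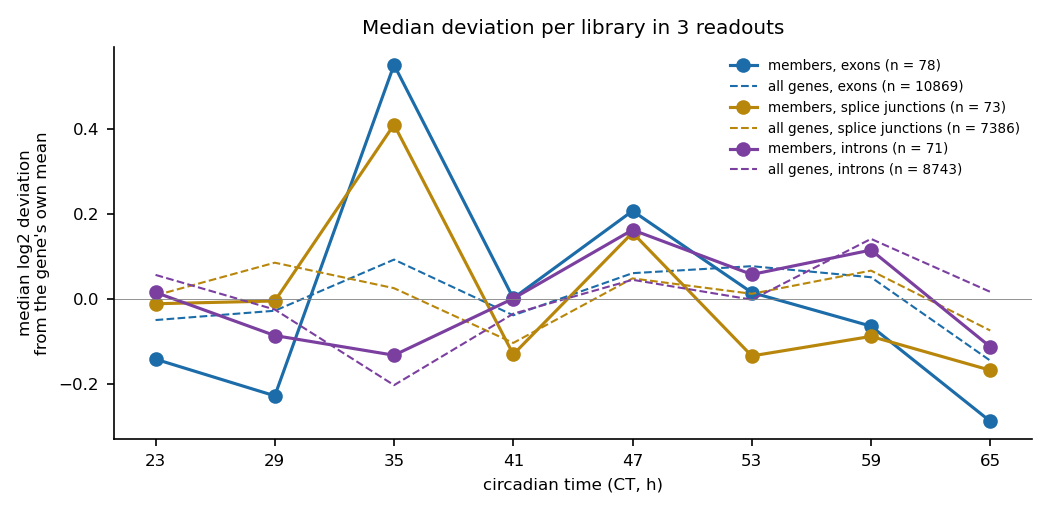
Median log2 deviation from each gene's own mean over the 8 circadian times for exons, splice junctions and introns of the members (solid) and of all genes tested in that readout (dashed). In CT35 the members stand at 0.55 in exons, 0.41 in junctions and -0.13 in introns.

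No member had a 24-h component in its junction reads (0 of 73 in edgeR's quasi-likelihood test, 2 at an unadjusted p under 0.05), against 1.69% of all genes with junctions. With no filter on reads the same test called 3 of 82 (Atp5md, Ndufa7 and Sdhc), against 3.46% of all genes in that fit. None had one in its introns (0 of 71 in limma, 3 at an unadjusted p under 0.05), against 1.74% of all genes with introns. The smallest adjusted p in introns was 0.0800 (limma) for Ndufa1, a small accessory subunit of complex I encoded on the X chromosome. Its introns stood at 0.487, 0.448, 0.194, 0.650, 0.934, 0.458, 0.242 and 0.594 RPKM from CT23 to CT65, on 166 reads in all. Both CT23 libraries lay above both CT11 libraries, and between these phases alone the log2 difference was 1.30 with an adjusted p of 0.0498 (limma), against 1.28% of all genes called. Without the CT35 library that adjusted p was 0.224. The exons of Ndufa1 had a fitted difference of 1.40-fold at an adjusted p of 0.623 (limma).

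The CT35 library set the direction between CT23 and CT11. With all libraries the members' median log2 difference CT23 minus CT11 was -0.19, against -0.07 over all genes, and 60 of the 78 were negative. Without CT35 the median was 0.15, against -0.02 over all genes, and 58 of the 78 were positive. By complex the median with all libraries was -0.23 in complex I, -0.44 in complex II, -0.21 in complex III, -0.23 in complex IV and -0.09 in complex V. Without CT35 it was 0.15, -0.11, 0.15, 0.22 and 0.14. Only complex II kept its sign among these medians, and it has 4 members. Cox5a and Ndufab1 kept theirs, at -0.54 and -0.50 without CT35. Among the 7 remaining libraries the members were most often highest in CT47 (42 of the 78, against 21.4% of all genes). Their median SD over libraries was 0.36 on the log2 scale with CT35 and 0.26 without it, against 0.28 and 0.25 over all genes.

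**Figure D4:**
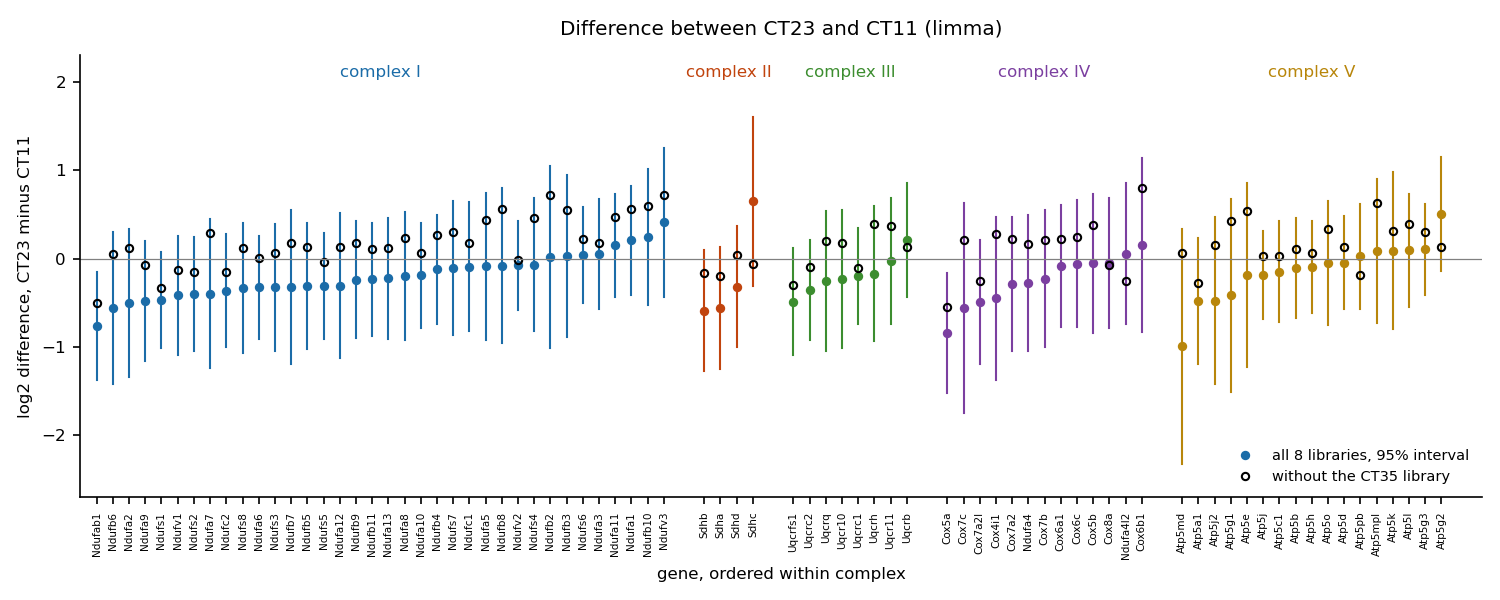
Log2 difference CT23 minus CT11 for the 78 members by complex: filled points and bars are the limma estimate and its 95% interval from all 8 libraries, and open circles are the estimate without the CT35 library. Most filled points lie below 0 (60 of 78) and most open circles above it (58 of 78).

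The 12-h component, which sets CT23 and CT11 together against CT5 and CT17, was called for no member by any of the 3 tools and for 0% of all genes in limma, with 7 members at an unadjusted p under 0.05 (7 in edgeR, 5 in DESeq2), against 7.98% of all genes. The smallest of these p-values belonged to Ndufc1, an accessory subunit of complex I, with a log2 difference of 0.54 and an adjusted p of 0.590 (limma). The difference was positive in 74 of the 78, against 63.1% of all genes, and without CT35 in 62 of the 78, against 62.7%. The second internal day against the first was called for no member by any of the 3 tools and for 0% of all genes in limma, with 4 members at an unadjusted p under 0.05 (5 in edgeR, 5 in DESeq2), against 2.36% of all genes. Uqcr11, a small subunit of complex III, fell by 0.50 on the log2 scale on the second day at an unadjusted p of 0.0216 and an adjusted p of 1.0 (limma). The members' median for the second day minus the first was -0.10 over the 4 phases and 0.08 over the 3 phases other than CT11.

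Sdhc differed from the other members along its own length, which was looked into after its values were seen. Sdhc anchors succinate dehydrogenase in the membrane and lies on the minus strand of chromosome 1 (mm9 chr1:173059538-173080722), with 6 exons in its RefSeq mRNA. Exons 1 to 3 together stood at 122, 81.9, 162, 145, 138, 194, 160 and 119 RPKM from CT23 to CT65. Exons 4 to 6 stood at 664, 563, 227, 678, 446, 663, 532 and 938 RPKM. The later exons were above the earlier ones in all 8 libraries, by 3.22 to 7.90 times in 7 of them and by 1.40 times in CT35. The step began at exon 4, which is 62 bases long and coding.

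Splice junction reads rose over the same part of the gene, but not in a single step. Reads joining exons 3 and 4 numbered 61, 75, 120, 62, 82, 132, 88 and 117 from CT23 to CT65. Those joining exons 4 and 5 numbered 350, 134, 346, 366, 151, 552, 386 and 621. In every library the junction of exons 4 and 5 lay between its neighbours on either side. Reads joining exons 5 and 6 numbered 1849, 1946, 672, 1603, 1335, 1083, 1101 and 2590 from CT23 to CT65, and reads joining exons 1 and 2 numbered 55, 30, 128, 64, 53, 74, 70 and 39. In CT35, the deepest library, the last junction had its fewest reads and the first junction its most. Summed over libraries, the busiest junction of Sdhc had 16.5 times the reads of its median junction, and among 57 members with at least 3 introns the next ratios were 5.82 for Uqcrc1 and 5.57 for Atp5c1, with a median of 1.82. The log2 difference CT59 minus CT35 was -0.02 for exons 1 to 3 and 1.23 for exons 4 to 6. The low value of Sdhc in CT35 thus came from its exons 4 to 6, while exons 1 to 3 stood 0.25 above their mean on the log2 scale, in the direction of most other members. Without strand in the quantification, as far as the sources tell, reads of another transcript over exons 4 to 6 cannot be told apart from reads of Sdhc, and this was not tested.

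**Figure D5:**
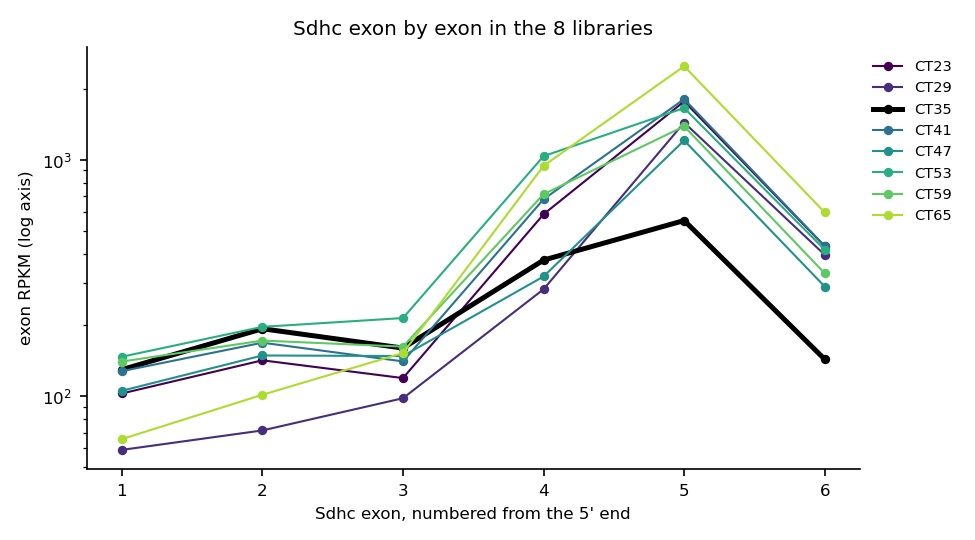
RPKM of the 6 exons of Sdhc on a log axis in the 8 libraries, with CT35 in black. Every line is higher over exons 4 and 5 than over exons 1 to 3, and exon 5 has 553 RPKM in CT35, against 1206 to 2486 RPKM in the others.

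Other genes of the pathway were followed as lists drawn up by name. None of their genes had a 24-h component at an adjusted p under 0.05 (limma, against 1.84% of all genes): 0 of 2 for cytochrome c and cytochrome c1, 0 of 13, 2, 5, 19 and 4 for the assembly factors of complexes I to V, 0 of 18 for the tricarboxylic acid cycle, 0 of 6 for carriers and porins, 0 of 10 for other dehydrogenases that feed ubiquinone, and 0 of 16 for regulators of mitochondrial biogenesis. None was called between CT23 and CT11, between CT5 and CT17, in the 12-h component or between the days either. The closest was Coa4, a complex IV assembly factor, at 1.99-fold with a peak at CT21.3 and an adjusted p of 0.0957 (limma). Sco2, a copper chaperone of complex IV, had 2.26-fold at an adjusted p of 0.209, and Gpd2, the mitochondrial glycerol-3-phosphate dehydrogenase, 2.65-fold at 0.163 (limma). Yy1, a transcription factor, had 1.91-fold at an adjusted p of 0.202, and Ppargc1b, a coactivator of mitochondrial genes, 1.76-fold at 0.285 (limma). Cycs, the mobile electron carrier cytochrome c, had 2.66-fold at an adjusted p of 0.376, and Cyc1, its electron donor in complex III, 1.17-fold at 0.905 (limma). In the other lists the smallest adjusted p (limma) was 0.251 for Tmem70, 0.320 for Uqcc1, 0.395 for Ndufaf2, 0.471 for Vdac2 and 0.650 for Sdhaf1, followed by 0.738 for Atpaf1, 0.459 for Uqcc3, 0.563 for Foxred1, 0.627 for Slc25a5, 0.803 for Sdhaf2 and 0.291 for Prodh. The number highest in CT35, against 28.8% of all genes, was 12 of 18 for the tricarboxylic acid cycle, 8 of 10 for the dehydrogenases, 4 of 6 for carriers and porins, 1 of 2 for cytochrome c and cytochrome c1, and 4 of 16 for the regulators. For the assembly factors of complexes I to V it was 8 of 13, 1 of 2, 4 of 5, 8 of 19 and 0 of 4.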

How the data were processed

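Coordinates are in mm9, the build named in the submitters' processing notes. The deposited transcript tables give a lower and an upper value for each transcript, exon and intron, which per the file headers are named only min and max and scale as RPKM; the program behind them is not named there. The deposited junction tables hold whole read counts. At least 99.9956% of the lower values in each library were whole multiples of what 1 read is worth, within 0.1 read, which gave the reads behind each value. Of 115699 transcripts, 79845 (69.0%) were named through RefSeq or Vega identifiers matched to GRCm38.p6, giving 24199 genes.

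Genes with at least 20 reads in at least 2 libraries were fitted with limma 3.58.1 (trend, robust) on log2(RPKM + 0.5) with 24-h cosine and sine terms; folds on this scale understate changes of low genes. The cosine compares CT23 with CT11 and the sine CT5 with CT17. Introns were fitted on log2(RPKM + 0.1), junction counts with edgeR 4.0.16. P-values were adjusted by Benjamini-Hochberg over every gene in a fit; calls need an adjusted value under 0.05. They measure the spread of pooled libraries around the curve, not between animals. DESeq2 1.42.0 and edgeR on recovered reads, other scalings, filters and transcripts, and leaving out each library were alternatives. The fits were tested on simulated data. A member's reads in a library numbered 11 to 12385 (median 389); floors of 3 reads cover counting error only.

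The members, lists and tests were chosen with earlier results of these data known. Named are members near the threshold, highest in each complex, in isoform families, with the largest differences between CT59 and CT35, and below the filter. The planned test for whole counts was not used because the tables hold RPKM.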

Additional observations from a re-analysis of the deposited data

How the results depend on the processing

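The count of members called was 0 for the 24-h component, CT23 against CT11, CT5 against CT17, the 12-h component and the second against the first day under every alternative run: pseudocounts of 0.1 and 1, no read filter, 50 reads in every library, TMM, equal medians, the upper value, array weights, a length correction, edgeR, DESeq2, the mean over transcripts and the RefSeq mRNA. Leaving out each library in turn gave counts of 0 to 0 in all 5 comparisons. The replicate block for the internal day also gave 0 members in each comparison it applies to; same-day deviations did not pair the libraries (correlations of -0.395 to 0.315). Junction reads with no read filter gave 3 members with a 24-h component (Atp5md, Ndufa7 and Sdhc) instead of 0, against 3.46% of all genes in that fit; the cause was not tested. Without CT11 replicate 1, the CT35 library, the median difference CT23 minus CT11 was 0.15 instead of -0.19 over all members. It was -0.11 instead of -0.44 in complex II and 0.15 instead of -0.21 in complex III. In complexes I, IV and V it was 0.15, 0.22 and 0.14 instead of -0.23, -0.23 and -0.09. The length correction turned the median of complex V to 0.05. Of 594 refits of the 26 named members' 24-h component, none passed the threshold (lowest adjusted p 0.148). Members highest in CT35 numbered 49 to 58 over 6 alternatives chosen after seeing the data. Each time is a single pooled library, so precision rests on 8 libraries, and members with few reads also carry counting error.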
